A study of Mus musculus with 4 samples.

Results

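The genes of the striated muscle sarcomere were followed in the mouse aorta, an organ whose contractile cells are smooth muscle. A list of 44 genes was set out, 26 of skeletal and 18 of cardiac muscle, and every probe set whose only gene symbol was a listed gene was taken. Of these genes 41 had at least 1 probe set among the 8251 genes named on the array, 24 of them skeletal and 17 cardiac, with 56 probe sets in all. No probe set of 1 symbol was found for Mybpc2, Ttn or Pln. Where a gene had several probe sets, the one with the highest mean log2 intensity stood for it in summaries. Each array was hybridised with RNA pooled from aortas, and the mice were adult C57BL/6J males. In the rosiglitazone group, 2 arrays numbered 1 and 2, mice had been given this PPARγ agonist at 25 mg/kg/day for 21 days. In the vehicle group, 2 arrays numbered 3 and 4, they had been given vehicle alone for 21 days. Neither the number of mice in a pool nor whether each array had its own pool is given in the labels, so p-values reflect array-to-array spread that may be technical only.

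A sarcomere is the repeating contractile unit of skeletal and cardiac muscle. Thick filaments of myosin slide along thin filaments of actin, and calcium released from internal stores binds troponin C, which lets myosin reach actin. Smooth muscle has no sarcomeres and no troponin, and calcium acts there through calmodulin and the kinase of the myosin light chain. Many sarcomere genes come in skeletal, atrial and ventricular versions, while others are shared between heart and slow skeletal fibres.

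A DNA element shared by many muscle genes, the CArG box bound by serum response factor, lies just ahead of members of both lists, and their starts are shown for that reason. RefSeq promoters of the GRCm38.p6 build were matched by symbol for 21 of 26 skeletal and 17 of 18 cardiac genes, and the 250 bases before each start were searched on both strands. A CArG box lay ahead of 2 skeletal genes (9.52%) and 3 cardiac genes (17.6%), against 1.62% of 27025 genes in the table. The 5 genes were Acta1 (chr8:123894776-123894895, minus strand), Myh4 (chr11:67237692-67237811, plus strand), Actc1 (chr2:114052876-114052995, minus strand), Myl3 (chr9:110763558-110763677, plus strand) and Myl7 (chr11:5898783-5898902, minus strand). The last 120 bases before each start follow, 5′ to 3′, with the CArG box and any TATAAA in capitals.
Acta1: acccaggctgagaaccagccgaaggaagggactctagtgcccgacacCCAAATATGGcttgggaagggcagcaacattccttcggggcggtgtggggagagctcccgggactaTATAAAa
Myh4: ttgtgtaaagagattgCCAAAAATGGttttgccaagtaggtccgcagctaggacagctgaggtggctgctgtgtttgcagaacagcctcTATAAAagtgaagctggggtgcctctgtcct
Actc1: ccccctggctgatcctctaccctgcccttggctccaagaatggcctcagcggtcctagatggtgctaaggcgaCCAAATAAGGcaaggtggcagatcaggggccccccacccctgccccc
Myl3: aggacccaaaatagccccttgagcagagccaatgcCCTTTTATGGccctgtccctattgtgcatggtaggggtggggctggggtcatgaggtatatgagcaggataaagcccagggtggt
Myl7: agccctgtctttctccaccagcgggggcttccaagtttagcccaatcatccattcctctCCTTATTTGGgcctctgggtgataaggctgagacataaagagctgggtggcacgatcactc

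Other motifs were searched in the same 250 bases. The MEF2 site was found ahead of 1 skeletal gene (Ttn, 4.76%) and 1 cardiac gene (Mybpc3, 5.88%), against 0.592% of all genes. TATAAA was ahead of 28.6% of skeletal and 23.5% of cardiac genes, against 14.3% of all. The E-box, CANNTG, to which MyoD-like factors bind, was ahead of 85.7% and 88.2%, against 69.3%. A pair of AGGTCA repeats spaced by 1 base, the element that PPAR and RXR bind, was ahead of 0 members and of 0.0407% of all genes. These are matches of letters in 1 window and not sites shown to be bound.

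Values were deposited intensities on a linear scale, without detection calls. A floor of 148, which 20% of all values lay at or below, was set before log2 was taken, and a probe set was tested when its mean log2 intensity reached that of 414. Limma found 26 of 7134 tested probe sets past an adjusted p of 0.05, or 0.364%, and 1 when either vehicle array was left out. Median intensities of the arrays lay between 591 and 648. The 3′ signal of the control transcripts exceeded their 5′ signal by 7.74-fold to 11.9-fold, the range over beta-actin and Gapdh on the 4 arrays. Smooth muscle, the contractile tissue of the labelled organ, was represented: Acta2, the smooth muscle actin, read 28866 and 33031 after rosiglitazone, against 56544 and 80133 after vehicle.

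No sarcomere transcript passed the test between the groups. Of 33 member probe sets tested, from 28 genes, 0 passed an adjusted p of 0.05 in limma, against the background of 0.364%, and the lowest adjusted p was 0.355. At an unadjusted p under 0.05 there was 1 (3.03%), that of Tnnt2, where 10.9% of all probe sets lay under it. The groups did not overlap for 9 of the 33 (27.3%), against 40.8% of all probe sets. A gap with at least a 1.5-fold change was found upward for 2 (6.06%, against 9.29% of all) and downward for 0 (against 12.4%). Over the brightest probe set of each gene the median log2 fold change was 0.01 for the 24 skeletal genes and 0.06 for the 17 cardiac genes, against -0.0017 over 8251 genes. Among the skeletal genes 13 lay above 0 and 10 below, and among the cardiac genes 9 and 8, against 3820 and 4129 of all genes.

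The arrays set how small a change could be seen. The 95% interval of the log2 fold change reached a median of 1.06 to either side for skeletal and 0.63 for cardiac probe sets. It stayed within a 2-fold change in both directions for 4 of 17 skeletal and 8 of 16 cardiac probe sets tested. For the others a 2-fold change lay inside the interval, so a p that misses the threshold does not show equal levels in them.

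**Figure D1:**
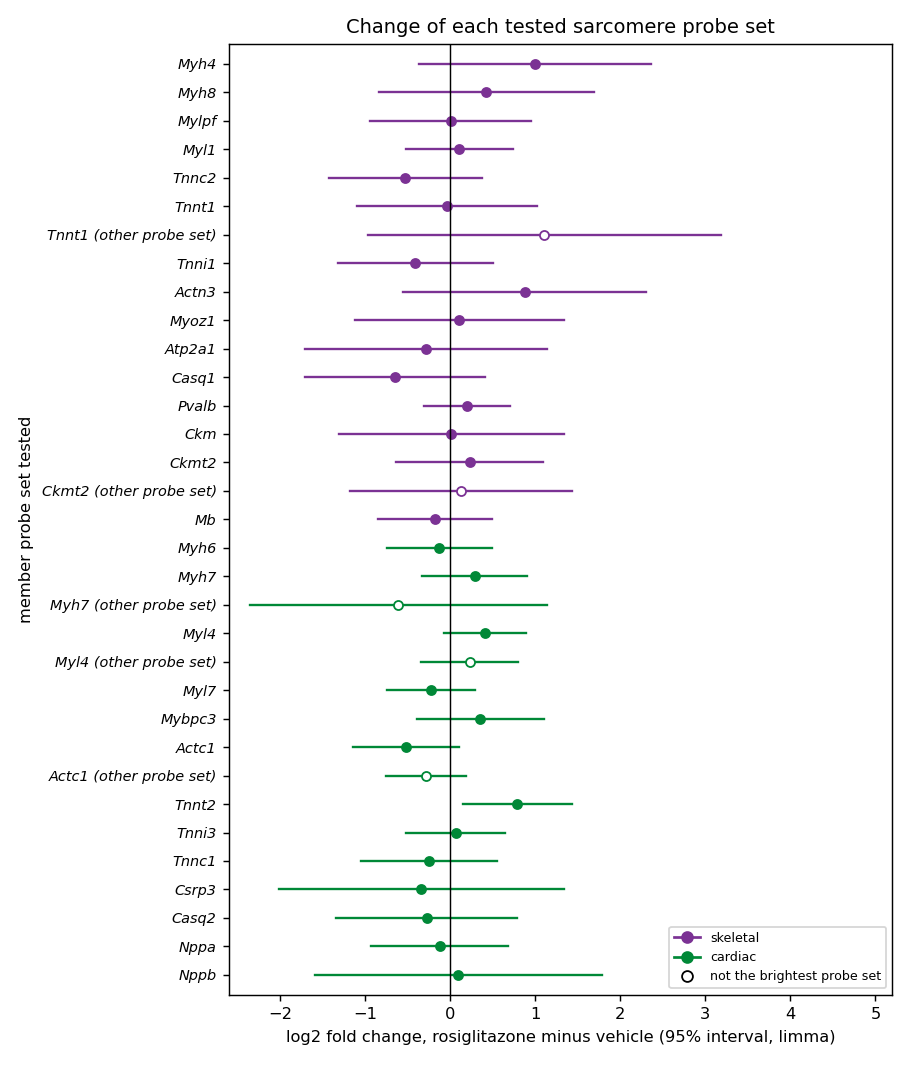
Log2 fold change (x axis, rosiglitazone minus vehicle) of each of the 33 tested member probe sets (y axis), with its 95% interval from limma, n = 2 arrays per group. Purple is skeletal and green cardiac, and open points are probe sets that are not the brightest of their gene. The interval includes 0 for 32 of the 33, the exception being Tnnt2.

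The summed signal of each sarcomere list overlapped between the groups. The 24 skeletal genes summed to 31485 and 30652 on the rosiglitazone arrays and to 31231 and 28853 on the vehicle arrays. This was 0.0882% to 0.0992% of all signal, with overlapping groups and a log2 ratio of 0.05. The 17 cardiac genes summed to 46647 and 52395 with rosiglitazone and to 48920 and 52446 with vehicle, or 0.142% to 0.160% of all signal, again with overlap. Their log2 ratio was -0.04, but it depended on the brightest member, Actc1. Without Actc1 the ratio was 0.14, and the cardiac sums lay higher on both rosiglitazone arrays than on either vehicle array. On the same arrays 8 smooth muscle markers summed to 61112 and 68062 with rosiglitazone and to 124947 and 149603 with vehicle, without overlap. The 8 brown adipocyte markers summed to 396548 and 427885 with rosiglitazone and to 286320 and 281377 with vehicle. The brightest of them, Cidea, read 240828 and 286124 with rosiglitazone and 188712 and 199365 with vehicle, and so made up most of these sums. Of the 8 genes 5 lay higher without overlap and 1, Dio2, lower. The 8 macrophage markers summed to 20092 and 19717 with rosiglitazone and to 57777 and 63009 with vehicle. In pooled tissue, fewer cells of a type and less RNA per cell cannot be told apart.

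**Figure D2:**
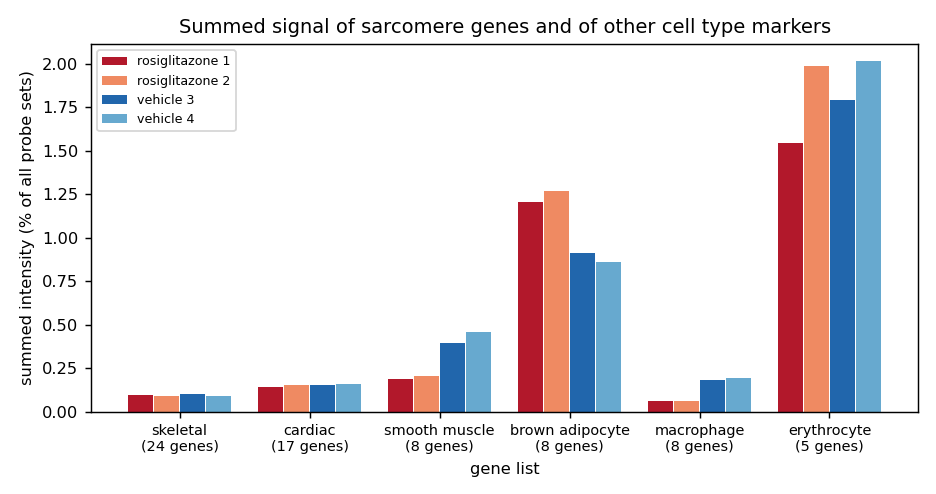
Summed intensity of the brightest probe sets of each list, as a percentage of the intensity of all probe sets (y axis from 0), for each array. Skeletal sums lie between 0.0882% and 0.0992% and cardiac sums between 0.142% and 0.160%, while the smooth muscle sums are lower, and the brown adipocyte sums higher, on both rosiglitazone arrays.

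Of the 6 thick filament genes of skeletal muscle that were measured, 3 lay above the filter on all arrays and 1 under it on all arrays. Myh4, the heavy chain of the fastest glycolytic fibres, read 674 and 1153 after rosiglitazone, against 543 and 358 after vehicle on its brightest probe set. Both rosiglitazone arrays lay above both vehicle arrays, with a log2 fold change of 1.0 (SE 0.60, 95% interval from -0.36 to 2.36, limma adjusted p = 0.602), and the value was 0.61 without rosiglitazone replicate 2. A second, dimmer probe set of Myh4 read 333 and 451 after rosiglitazone, against 35 on each vehicle array, at least 2.62-fold higher with rosiglitazone against the floor. It did not reach the filter, and with no filter its adjusted p was 0.334. Myh1, the heavy chain of the intermediate fast fibres, read 424 and 629 after rosiglitazone, against 53 and 382 after vehicle. Its groups did not overlap, by a narrow gap (424 against 382), and the 53 was that of vehicle replicate 3. Myh1 was also under the filter, and with no filter its limma adjusted p was 0.737. The probe sets of Myh4 and Myh1 thus read higher on both rosiglitazone arrays than on either vehicle array, for Myh1 narrowly. In them 3 of the vehicle readings were under the floor.

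Of the remaining heavy chains, Myh2, of the oxidative fast fibres, lay under the floor on all 4 arrays, at 29 to 107. Myh8, the perinatal heavy chain, read 873 and 641 after rosiglitazone, against 616 and 505 after vehicle, also higher without overlap, a log2 fold change of 0.42 (adjusted p = 0.838). Its other probe set lay under the floor throughout.

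The fast myosin light chains were measured above the filter on all arrays and did not separate the groups. Myl1, the essential light chain of fast fibres, read 4855 and 3328 after rosiglitazone, against 3342 and 4181 after vehicle. Its log2 fold change was 0.10, with a 95% interval from -0.53 to 0.74. Mylpf, the fast regulatory light chain, read 1597 and 986 after rosiglitazone, against 1547 and 1009 after vehicle, a log2 fold change of 0.01. In both genes the arrays of a group differed more than the groups did. A second probe set of Mylpf lay under the floor on all 4 arrays, at 28 to 133.

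Among skeletal thin filament genes, 5 of 6 lay below 0, against 4129 of all 8251 genes, and of the 3 that were tested 0 passed. Acta1, the skeletal actin whose CArG box and TATAAA are shown above, read 175 and 624 after rosiglitazone, against 173 and 1131 after vehicle. It was thus high on 1 array of each group and low on the other, and did not reach the filter. Tnnt3, the fast troponin T that anchors the complex to tropomyosin, read 467 and 61 after rosiglitazone, against 476 and 603 after vehicle. The groups did not overlap, by a narrow gap, and the mean was at least 2.04-fold lower after rosiglitazone, with 1 rosiglitazone array under the floor. It was not tested, being under the filter. Tnnc2, the fast calcium sensor troponin C, read 951 and 800 after rosiglitazone, against 1249 and 1274 after vehicle, without overlap, a log2 fold change of -0.53 (SE 0.40, limma adjusted p = 0.688). Its other probe set lay under the floor on every array. Tnni2, the fast inhibitory subunit, did not reach the filter on any array, at 109 to 384.

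The slow troponins were brighter than the filter on all arrays. Tnni1, the slow inhibitory subunit, read 2976 and 1261 after rosiglitazone, against 2730 and 2433 after vehicle. The low value of rosiglitazone replicate 2 set its log2 fold change of -0.41, which turned to 0.21 when that array was left out. Tnnt1, the slow troponin T, read 1501 and 712 after rosiglitazone, against 1099 and 1025 after vehicle, with overlap. On a second probe set of Tnnt1, with a log2 fold change of 1.11 (adjusted p = 0.726), the 145 of vehicle replicate 3 stood apart from the other 3 arrays, at 726 to 1229.

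**Figure D3:**
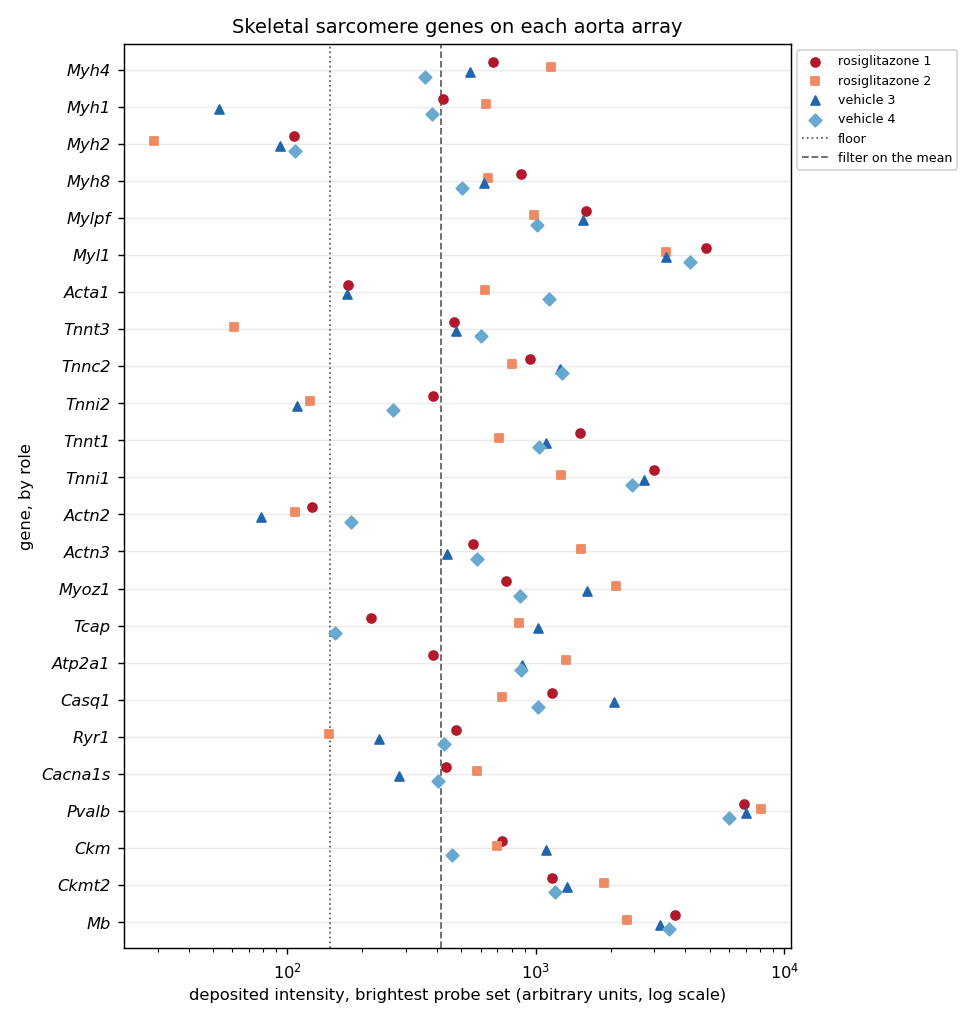
Deposited intensity (x axis, log scale) of the brightest probe set of each of the 24 skeletal genes (y axis, ordered by role) on each array. Dotted and dashed lines mark the floor of 148 and the filter of 414, which applies to the mean. Arrays of 1 group are often further apart than the groups, as for Acta1 (175 and 624 with rosiglitazone, 173 and 1131 with vehicle).

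Z disc genes, whose proteins join thin filaments of neighbouring sarcomeres, had the widest spread of the skeletal roles, with a median SD within groups of 0.83 on the log2 scale against 0.43 for all skeletal genes. Actn3, the fast fibre α-actinin, read 557 and 1526 after rosiglitazone, against 439 and 578 after vehicle, a log2 fold change of 0.87 that was 0.15 without rosiglitazone replicate 2. Myoz1, a fast fibre protein that binds calcineurin, read 756 and 2110 after rosiglitazone, against 1602 and 862 after vehicle. Tcap, which caps titin, read 217 and 852 after rosiglitazone, against 1016 and 155 after vehicle, under the filter on average. Both genes were thus high on 1 array of each group. Actn2, the α-actinin of cardiac and all skeletal fibres, lay under the floor on 3 of 4 arrays, at 78 to 181.

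Of the skeletal calcium handling genes, Pvalb, the cytosolic calcium buffer parvalbumin, read 6865 and 8036 after rosiglitazone, against 7028 and 6002 after vehicle. Its log2 fold change was 0.19, with an interval from -0.31 to 0.70. A second probe set made from the same accession read 44 to 182, so its probe sets did not both detect the gene above the filter. Casq1, the calcium buffer of the skeletal sarcoplasmic reticulum, read 1166 and 730 after rosiglitazone, against 2064 and 1017 after vehicle, a log2 fold change of -0.65 (adjusted p = 0.675) that was -0.14 without vehicle replicate 3. Atp2a1, the fast fibre calcium pump, read 384 and 1325 after rosiglitazone, against 877 and 869 after vehicle on its brightest probe set. Its other probe set, under the filter, read 560 and 601 after rosiglitazone, against 381 and 122 after vehicle, without overlap. With 1 vehicle array under the floor this is at least 2.44-fold higher, on the other side of 0 from the brightest set. Ryr1, the calcium release channel, had 147 to 475 with overlap. Cacna1s, its voltage sensor, read 434 and 579 after rosiglitazone, against 281 and 405 after vehicle, without overlap and under the filter.

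The genes of energy and oxygen supply lay above the filter and overlapped between the groups. Mb, the oxygen store myoglobin, read 3630 and 2320 after rosiglitazone, against 3157 and 3426 after vehicle, a log2 fold change of -0.18 with an interval from -0.85 to 0.49. A dimmer set of Mb, under the filter, was at least 1.56-fold higher after rosiglitazone without overlap, with 1 vehicle array under the floor. Ckm, the muscle creatine kinase, read 732 and 695 after rosiglitazone, against 1095 and 459 after vehicle on its brightest probe set. Another probe set of Ckm, under the filter, read 158 and 196 after rosiglitazone, against 425 and 299 after vehicle, lower on both rosiglitazone arrays, and its adjusted p with no filter was 0.463. Ckmt2, the mitochondrial creatine kinase of striated muscle, read 1161 and 1878 after rosiglitazone, against 1331 and 1199 after vehicle. Of its other probe sets, one had a log2 fold change of 0.12. The last, an r-type set under the filter, read 29 and 46 after rosiglitazone, against 306 and 292 after vehicle, at least 2.02-fold lower against the floor (adjusted p = 0.284 with no filter).

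Probe sets of 1 gene did not always point the same way. Of 14 genes with several probe sets, 5 had all of them on 1 side of 0 and 9 did not. In Myh8, Mylpf and Tnnc2, among these 9, the second set lay under the floor on all 4 arrays. Its change was thus 0, without a direction. Opposite signs were found in Tnnt1, Atp2a1, Ckm, Ckmt2, Mb and Myh7. The brightest sets of Tnnt1 (-0.04) and Ckm (0.01) lay near 0. On this array the letters f, r, i and s in a probe set name mark sets that match a gene family, break a design rule, have fewer unique probes or are shared by transcripts, and 18 of the 56 member probe sets carried 1. A total of 10 probe sets, all skeletal, lay under the filter on all 4 arrays. The part of probe design and of the 3′ excess in these disagreements was not tested.

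The cardiac genes were measured more firmly, and the atrial light chains were above the filter on every array. Myl4, the atrial essential light chain, read 9787 and 11579 after rosiglitazone, against 7583 and 8549 after vehicle. Both rosiglitazone arrays lay above both vehicle arrays, with a log2 fold change of 0.40 (SE 0.21, limma adjusted p = 0.545) and an interval from -0.08 to 0.88. A second probe set of Myl4 read 5044 and 4885 after rosiglitazone, against 4980 and 3605 after vehicle, with overlap and a log2 fold change of 0.23. Myl7, the atrial regulatory light chain and a gene with a CArG box above, read 4341 and 4663 after rosiglitazone, against 5499 and 5030 after vehicle. It lay lower on both rosiglitazone arrays, by a log2 fold change of -0.23 with an interval from -0.74 to 0.29. The partners of the atrial myosin thus lay on opposite sides of 0, neither past the threshold.

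The ventricular light chains were dim. Myl2, the ventricular regulatory light chain, read 142 and 128 after rosiglitazone, against 1028 and 119 after vehicle, under the floor on 3 arrays and high only on vehicle replicate 3. Myl3, the essential light chain of ventricle and slow fibres, read 588 and 673 after rosiglitazone, against 271 and 246 after vehicle. Its groups did not overlap, and the log2 fold change was 1.28, or 2.44-fold. Its mean lay under the filter, and with no filter the adjusted p was 0.530 (SE 0.42).

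Of the cardiac heavy chains, Myh6, the α chain that dominates the adult mouse heart, read 2618 and 3476 after rosiglitazone, against 3087 and 3529 after vehicle. Its log2 fold change was -0.13, with an interval from -0.75 to 0.49. Myh7, the β chain of slow fibres and the fetal ventricle, read 3439 and 2991 after rosiglitazone, against 2975 and 2325 after vehicle on a family-type probe set, a log2 fold change of 0.29. Its other probe set had -0.61 and a wide interval, from -2.36 to 1.14. Mybpc3, cardiac myosin-binding protein C, which tunes cross-bridge cycling, read 2050 and 1997 after rosiglitazone, against 1315 and 1906 after vehicle, a log2 fold change of 0.35 that was 0.09 without vehicle replicate 3.

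**Figure D4:**
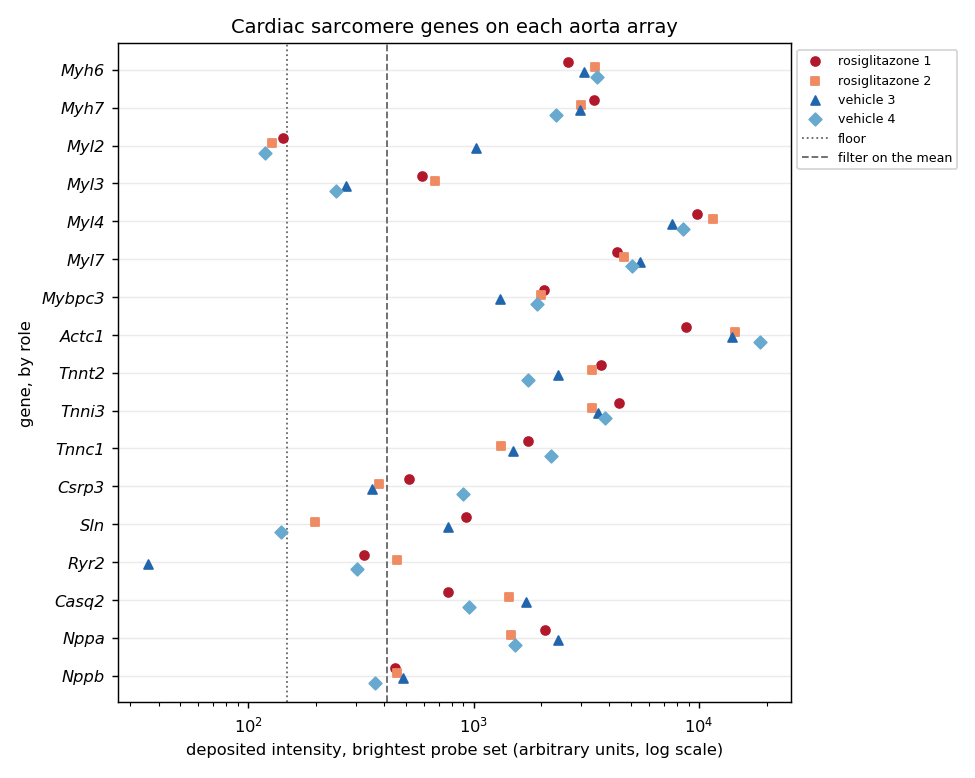
Deposited intensity (x axis, log scale) of the brightest probe set of each of the 17 cardiac genes (y axis, ordered by role) on each array, with the floor of 148 dotted and the filter of 414 dashed. The atrial light chains Myl4 and Myl7 are above the filter on all arrays, while Myl2 is above it only on vehicle replicate 3, at 1028.

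Among cardiac thin filament genes, Tnnt2, cardiac troponin T, was the member with the smallest p of all those tested. It read 3697 and 3354 after rosiglitazone, against 2379 and 1746 after vehicle, so both rosiglitazone arrays lay above both vehicle arrays. The log2 fold change was 0.79, or 1.73-fold, with an SE of 0.29 and an interval from 0.14 to 1.44 (limma adjusted p = 0.355). It was 0.57 without vehicle replicate 4 and 1.01 without vehicle replicate 3, and its adjusted p was 0.298 to 0.853 over 10 alternatives. Tnnt2 therefore did not pass once all 7134 probe sets were counted.

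Tnni3, the cardiac inhibitory troponin that adrenergic signals phosphorylate, read 4424 and 3352 after rosiglitazone, against 3557 and 3827 after vehicle. Its log2 fold change was 0.06 with an interval from -0.52 to 0.64. Tnnc1, the calcium sensor of heart and slow fibres, read 1738 and 1323 after rosiglitazone, against 1491 and 2200 after vehicle, a log2 fold change of -0.26 with overlap. The 3 cardiac troponin subunits were thus all measured above the filter, and Tnnt2 alone had groups that did not overlap.

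Actc1, the cardiac actin, read 8757 and 14458 after rosiglitazone, against 14000 and 18776 after vehicle on its brightest, family-type probe set. Its log2 fold change was -0.53 (SE 0.28, adjusted p = 0.542), with overlap. The other probe set, marked as having fewer unique probes, read 7537 and 6895 after rosiglitazone, against 8607 and 9028 after vehicle, a log2 fold change of -0.29 without overlap. Actins are near-identical in sequence, and Acta2, the smooth muscle actin, had a log2 fold change of -1.12 on the same arrays (adjusted p = 0.0799). The part of Acta2 in the Actc1 signal was not tested.

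The remaining cardiac members overlapped between the groups, save Ryr2. Nppa, the atrial natriuretic peptide, read 2085 and 1467 after rosiglitazone, against 2372 and 1533 after vehicle, high on 1 array of each group, and a log2 fold change of -0.12. Nppb, the brain natriuretic peptide, read 447 and 456 after rosiglitazone, against 488 and 366 after vehicle. Casq2, the cardiac calsequestrin, read 769 and 1442 after rosiglitazone, against 1713 and 955 after vehicle. Csrp3, a Z disc protein of stretch sensing, read 515 and 382 after rosiglitazone, against 353 and 895 after vehicle. Sln, sarcolipin, which inhibits the calcium pump in atrium and skeletal muscle, read 925 and 197 after rosiglitazone, against 773 and 140 after vehicle, so 1 array of each group was high and the other low. Ryr2, the cardiac calcium release channel, read 325 and 457 after rosiglitazone, against 36 and 304 after vehicle, without overlap and under the filter. It was at least 1.82-fold higher, since 1 vehicle array lay under the floor.

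The CArG-box members did not move as 1. Myh4 and Myl3 lay higher on both rosiglitazone arrays, Myl7 lay lower on both, and Acta1 and the brightest set of Actc1 overlapped. Acta1 and Myl3 were not tested, being under the filter, and the other 3 did not pass.

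The likeness of the arrays over these genes is given as a description, since genes of 1 array are not independent. Over the 17 cardiac genes Pearson's r of log2 intensity was 0.933 for the rosiglitazone pair, 0.852 for the vehicle pair and 0.839 to 0.952 between arrays of different groups. Over the 24 skeletal genes the values were 0.732, 0.795 and 0.753 to 0.876. In the skeletal list the arrays of a group were no more alike than arrays of different groups. The cardiac list did not group by treatment throughout either, as its highest value, 0.952, was that of rosiglitazone replicate 2 and vehicle replicate 4. Over all 5466 genes tested, arrays of a group were more alike, at 0.885 and 0.897 within groups against 0.857 to 0.868 between them. That set held only genes past the filter, while 15 of the 24 skeletal and 13 of the 17 cardiac genes were past it. The sets are therefore not alike. Of the 24 skeletal genes 8 were highest on rosiglitazone replicate 1, 8 on rosiglitazone replicate 2, 3 on vehicle replicate 3 and 5 on vehicle replicate 4, and the cardiac counts were 5, 3, 5 and 4. Rosiglitazone replicate 2 was also the lowest array for 10 skeletal genes.

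A further list of 69 striated muscle genes held 48 that were measured and 29 whose brightest probe set was tested. Of these 29, 1 passed the threshold, upward, and 0 passed downward, against 21 of all 5466 genes tested. The groups did not overlap for 12 of the 29 (41.4%), near the 41.1% of all genes tested. The median log2 fold change was -0.16 over the 48, against -0.0017 over 8251 genes. The gene that rose was Fabp3, the fatty acid binding protein of heart, which brown adipocytes also make, at 13425 and 14910 with rosiglitazone and 5401 and 4350 with vehicle (log2 fold change 1.55, SE 0.22, limma adjusted p = 0.0240). This call was lost without vehicle replicate 3 (1.70) and without vehicle replicate 4 (1.39). It was also lost with no filter, with the higher floor and with no intensity trend, as the same value of 1.55 then had an adjusted p of 0.284 to 0.338. The 4 next smallest p-values belonged to Tpm1, a tropomyosin of smooth as well as striated muscle (-1.01, adjusted p = 0.144), Fkbp1b, a regulator of ryanodine receptors (-0.90, adjusted p = 0.374), Myom1, an M-line protein (-1.72, adjusted p = 0.459), and Ldb3, a Z disc protein (-1.01, adjusted p = 0.467). None (0) of these 4 passed. The 4 brightest genes of the list were Cox7a1 (0.34) and Cox8b (0.26), cytochrome oxidase subunits of muscle and brown fat, Csrp2, a LIM protein of smooth muscle (-0.36), and Fhl1 (-0.42). Cox8b lay higher, and Csrp2 and Fhl1 lower, without overlap, and none of them passed.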

How the data were processed

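The authors deposited 1 intensity per probe set and array, as whole numbers on a linear scale, for 4 Affymetrix MG-U74Av2 arrays of pooled aortic RNA, and the arrays share a trimmed mean. The software and background correction are not given in the sources used here. Of 12488 probe sets, 66 controls were left out. The platform annotation gave gene names (10833 probe sets with 1 symbol, 396 with several, which named no gene), updated through gene identifiers against a RefSeq table of GRCm38.p6. Intensities were floored at 148, log2 was taken, and probe sets with a mean at or above 414 were tested in limma 3.58.1 (R 4.3.3; lmFit, eBayes, trend allowed). Tests were two-sided, and limma p-values were adjusted by Benjamini-Hochberg across 7134 probe sets. The procedure was run on simulated data with known changes, under loose limits on the size of the estimates and on false calls. This does not establish its power or error rate here. With 2 arrays against 2 the smallest exact permutation p is 0.333, so none was run. No set test was run. Members with no overlap and at least a 1.5-fold change or an adjusted p under 0.05 were described in full. The members and lists were chosen with earlier results of these data known. Of the other lists, white adipocyte markers (4 genes) had a median log2 fold change of -0.16, erythrocyte markers (5 genes) -0.73, smooth muscle markers -1.19, brown adipocyte markers 0.56 and macrophage markers -1.13. Summed signal read otherwise for white adipocyte markers, higher on both rosiglitazone arrays (log2 ratio 0.41), and for erythrocyte markers, with overlap (-0.06). Alternatives changed the floor, filter, scaling, intensity trend, arrays and the value per gene. The number of arrays limits the precision.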

Additional observations from a re-analysis of the deposited data

How the results depend on the processing

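No member probe set (0) passed an adjusted p of 0.05 in limma under any of the 10 alternatives fitted, and 0 to 2 of 33 had an unadjusted p under 0.05 in them. The count over all probe sets moved from 26 to 0 with the floor at the 40th percentile (933 at an unadjusted p under 0.05) and 0 with no filter (1202), to 17 with arrays centred on their medians and 7 with no intensity trend, and ranged from 1 to 78 with 1 array left out. The cause was not tested. The skeletal and cardiac medians stayed within the spread of the arrays (SD 0.20 and 0.24) in every alternative run, though the cardiac median was -0.12 when all probe sets of a gene were averaged, and -0.12 over the members that passed the filter, an alternative added after the data were seen. The summed skeletal ratio was 0.13 with centred arrays and the summed cardiac ratio 0.14 without its brightest member, both added after the data were seen. Centring moved the median of all probe sets to 0.06 from -0.02. The sign held in all 10 alternatives for 14 of 33 member probe sets and changed in at least 1 for 19. Tnnt1 turned to 0.045 with centred arrays and 0.022 with quantile normalization. The others changed sign only with 1 array left out. Log2 fold changes then ran, for Mylpf from -0.34 to 0.35, Myl1 from -0.17 to 0.38, Tnnt1 from -0.58 to 0.50, Tnnt1 (second probe set) from -0.42 to 2.63, Tnni1 from -1.03 to 0.21, Myoz1 from -0.64 to 0.84 and Atp2a1 from -1.18 to 0.60. In the same way, Ckm from -0.62 to 0.64, Ckmt2 from -0.12 to 0.57, Mb from -0.50 to 0.14, Myh6 from -0.33 to 0.075, Myh7 (second probe set) from -1.69 to 0.47, Myl4 (second probe set) from -0.0047 to 0.46 and Tnni3 from -0.14 to 0.26. The last were Tnnc1 from -0.54 to 0.024, Csrp3 from -1.01 to 0.33, Casq2 from -0.73 to 0.17, Nppa from -0.44 to 0.19 and Nppb from -0.11 to 0.30. The lone array of a group is then assumed to vary like the others. No paired analysis was possible because the groups share no replicate number in the labels.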

Other observations

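Genes of the neuromuscular junction, the synapse of motor nerve and skeletal fibre, and of the muscle regulatory factors were measured too, chosen here after their values were seen. Most overlapped between the groups or were under the filter. Chrnd, the δ subunit of the muscle acetylcholine receptor, read 147 and 124 after rosiglitazone, against 783 and 604 after vehicle. Both rosiglitazone arrays lay under the floor, so it was at least 4.65-fold lower, but its mean was under the filter and it was not tested. The α subunit gene Chrna1 had 35 to 190, under the floor on 3 arrays, and Chrnb1, the β subunit, read 247 and 585 after rosiglitazone, against 316 and 818 after vehicle, with overlap. The γ subunit Chrng overlapped on its brightest probe set (-0.17) and lay lower without overlap on a dimmer one (-0.89), neither tested. Musk, the receptor kinase of the junction, had a log2 fold change of 0.10 with overlap and was not tested. Myod1, a regulator that commits cells to skeletal muscle, read 1522 and 1926 after rosiglitazone, against 2045 and 2136 after vehicle, lower without overlap, a log2 fold change of -0.29 (limma adjusted p = 0.790). Myog, which acts after it, read 1798 and 891 after rosiglitazone, against 1898 and 414 after vehicle, high on 1 array of each group, as Sln and Nppa were. Myf5 lay under the floor on all 4 arrays, at 37 to 94, and Myf6 had a log2 fold change of -0.09 with overlap (adjusted p = 0.979).

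The genes that follow were also chosen after their values were seen, and most had groups that did not overlap. Over the brightest probe sets, that held for 19 of the 48 measured genes of this further list (39.6%), against 39.0% of 8251 genes. Others of the list, such as Xirp1, Ankrd1, Corin, Gja5 and Hrc, overlapped. Among cardiac regulators, Nkx2-5 read 195 and 250 after rosiglitazone, against 148 and 170 after vehicle, higher without overlap and under the filter. Gata4 read 1234 and 373 after rosiglitazone, against 1431 and 1768 after vehicle, lower without overlap, a log2 fold change of -1.23 (adjusted p = 0.476) with rosiglitazone replicate 2 the lowest array. Hand2 read 192 and 473 after rosiglitazone, against 474 and 515 after vehicle, lower by a narrow gap and not tested. Of 4 probe sets of Mef2c, all untested, 2 lay lower without overlap and 2 overlapped. Popdc3, a membrane protein of striated muscle, read 388 and 582 after rosiglitazone, against 142 and 148 after vehicle, without overlap and under the filter. Myom2, an M-line protein of fast fibres and heart, read 34 and 24 after rosiglitazone, against 316 and 401 after vehicle, with both rosiglitazone arrays under the floor. It too was under the filter and not tested.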
